A study of Mus musculus with 18 samples.

Results

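ImmV2 is a sorted population of mouse thymocytes (T cells maturing in the thymus), and its 2 RNA-seq libraries were compared with the 16 other libraries of the same series. Its members were taken by their labels, 2 of 18 libraries, and each gene was asked whether it stood apart in ImmV2 from the other 6 populations. All 7 populations were sorted from C57BL/6 mice at postnatal day 10, from the thymus, with no further genotype or treatment named. The others were DN1ab (n = 2), DN1d (n = 2), DN1e (n = 3), DN2 (n = 3), DN4 (n = 3) and DN1 ckit+ (n = 3). DN stands for double negative, the thymocytes that carry neither CD4 nor CD8. Kit, the receptor for stem cell factor, is what the name DN1 ckit+ refers to. No source used here spells out the name ImmV2, and the design text treats it as the reference to which the progenitor populations can be compared. About 10000 cells entered each preparation, and 1 ng of cDNA amplified with a NuGEN Ovation kit entered each library. The design text calls the replicates biological, but no label names the animals, so a p-value here reflects how much these libraries vary, and that variation may be technical in part. In sorted bulk samples, fewer cells of a type and less RNA per cell cannot be told apart.

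Gamma delta T cells carry a T cell receptor made of a gamma and a delta chain in place of the alpha and beta chains of most T cells. Each chain is assembled in the thymus by joining variable, diversity and joining segments, and the delta segments lie inside the alpha locus. A subset that makes IL-17 leaves the newborn thymus already programmed, under transcription factors such as Maf and Sox13. Trgv2 is a gamma chain variable segment that RefSeq also lists as Vgamma2. Whether the name ImmV2 refers to this segment or to another is not stated in the sources used here. Dio3 encodes the type 3 deiodinase, the enzyme that inactivates thyroid hormone.

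The sequences below are those of the 4 alpha chain joining segments whose values were called higher in ImmV2, and of the start of Dio3. No sequence of Trgv2, the other receptor segment called higher, was taken. The 4 alpha chain joining segments are shown because they were among the highest values of ImmV2 and because their length bears on the unit. They are reference sequences of GENCODE M21 on GRCm38, plus strand, 5′ to 3′. Capitals mark the match to TTCGG or TTTGG followed by any 4 bases and GG, which holds the codons of the joining segment motif (Phe-Gly-X-Gly).
Traj57 (chr14:54158507-54158569): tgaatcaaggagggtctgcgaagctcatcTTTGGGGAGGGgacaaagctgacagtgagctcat
Traj53 (chr14:54162644-54162709): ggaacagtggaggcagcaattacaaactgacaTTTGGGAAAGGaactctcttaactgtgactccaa
Traj40 (chr14:54177921-54177981): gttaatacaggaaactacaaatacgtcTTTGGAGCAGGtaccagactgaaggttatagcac
Traj35 (chr14:54183774-54183838): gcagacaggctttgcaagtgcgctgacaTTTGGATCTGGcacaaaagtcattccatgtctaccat
These segments are 61 to 66 bases long, and 42 of the 51 annotated alpha joining segments, 55 to 66 bases long, hold the same motif. FPKM divides by length, so a read in such a short segment weighs more than a read in a full gene, and levels of segments are not compared with those of genes below. The RefSeq window of Dio3 (GRCm38.p6, chr12:110278980-110279279, plus strand) runs from 250 bases before to 50 bases after the gene's start.
Dio3 promoter: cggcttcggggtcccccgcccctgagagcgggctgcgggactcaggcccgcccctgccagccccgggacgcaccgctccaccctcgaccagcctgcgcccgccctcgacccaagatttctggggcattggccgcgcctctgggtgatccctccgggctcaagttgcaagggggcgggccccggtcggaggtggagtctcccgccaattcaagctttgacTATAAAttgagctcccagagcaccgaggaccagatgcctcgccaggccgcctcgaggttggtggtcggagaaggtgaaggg
Capitals mark TATAAA, which begins 31 bases before the start. On the gene's strand, TATAAA occurred in 8.32% of 32851 promoter windows of the same length. Among genes called higher in ImmV2, 43 had a promoter window and 6 held it, as did 4 of the 15 named below with a window, namely Dio3, Krt20, Olfr24 and Trp53tg5. The HMG-box sequence AACAAAG, searched on both strands, was in 5.85% of windows and in 1 of the 43. TGCTGAC, part of the sequence that Maf proteins bind, searched on both strands, was in 4.67% of windows and in 1 of the 43. The Dio3 window held neither. The percentages are shares of all windows, not only those of genes tested. The counts are of genes, each counted once if any of its windows held the match. These matches describe letters and not bound sites.

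The deposited values show how far the libraries can be read. In ImmV2 1, 53.3% of rows were at the lowest deposited value of 0.01 FPKM, and in ImmV2 2 40.1% were, against 34.5% to 53.6% in the other libraries. The means were 46.7% and 42.2% (exact permutation test over libraries, two-sided p = 0.320, with 0.00654 the smallest possible). Housekeeping genes were among these rows: Actb was listed at the lowest value in ImmV2 1 and at 1045 FPKM in ImmV2 2. For a gene at 0.01 FPKM the text says only that it had the lowest value. ImmV2 1 had its highest Spearman correlation across genes with ImmV2 2 (0.272), but ImmV2 2 had its highest with DN4 2 (0.309), and ImmV2 1 stood at rank 11 of its 17 partners. These correlations run across genes, which are not independent replicates, and are given as a description.

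The 3 marker genes given for ImmV2 did not behave alike, and Dio3 alone stood apart from every population. Dio3 was at 333 FPKM in ImmV2 1 and 119 FPKM in ImmV2 2. In the other libraries its lowest and median values were both 0.01 FPKM and its highest was 1.40 FPKM in DN1e 1, so the groups did not overlap. The log2 difference between ImmV2 and the mean of the 6 other populations, on the log2(FPKM + 1) scale used throughout, was 7.55 ± 0.63 SE (limma, adjusted p = 3.37e-05). Its difference from single populations ranged from 7.21 against DN1e to 7.63 against DN1d, DN2 and DN4, and each passed (limma, highest adjusted p = 0.000605). With 1 other library at 1 FPKM, Dio3 was tested only because its ImmV2 values counted in the filter on low values. Dio3, Maf and Trgv2 were all given as markers with results of these data known. The differences and p-values of all 3, here and below, are therefore descriptions.

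Maf was as high or higher in DN1d. Its ImmV2 values were 39.0 and 40.7 FPKM, its DN1d values 56.1 and 75.6 FPKM, and its DN1e values 36.0, 21.7 and 0.0202 FPKM. The other 11 libraries had 2.85 FPKM or less. The log2 difference of 3.18 ± 1.03 SE against the mean of the others missed the threshold (limma, adjusted p = 0.397). Both ImmV2 libraries were thus nearly equal for Maf, but they lay within the range of the others.

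Trgv2 had 122 and 657 FPKM in ImmV2 beside 117 and 204 FPKM in DN1d, so the groups overlapped. It was at 18 to 66.3 FPKM in DN4, at 8.20 to 63.6 FPKM in DN1e, at 8.66 FPKM or less in DN2 and at 0.202 FPKM or less in DN1ab and DN1 ckit+. Against the mean of the others it was higher by 4.97 ± 0.98 log2 units (limma, adjusted p = 0.0352). It passed against DN1ab, DN1 ckit+ and DN2, and missed the threshold against DN1d (0.87 ± 1.30, adjusted p = 1), DN1e (3.64 ± 1.19, adjusted p = 0.259) and DN4 (2.79 ± 1.19, adjusted p = 0.633). Its call was lost in 13 of the 30 alternative settings tried. Without ImmV2 2 the log2 difference was 3.76 (limma, adjusted p = 0.259), and without DN1ab 1, DN1ab 2, DN1 ckit+ 1, 2 or 3, DN2 1 or DN4 3 the adjusted p lay between 0.0509 and 0.0596 (limma).

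**Figure D1:**
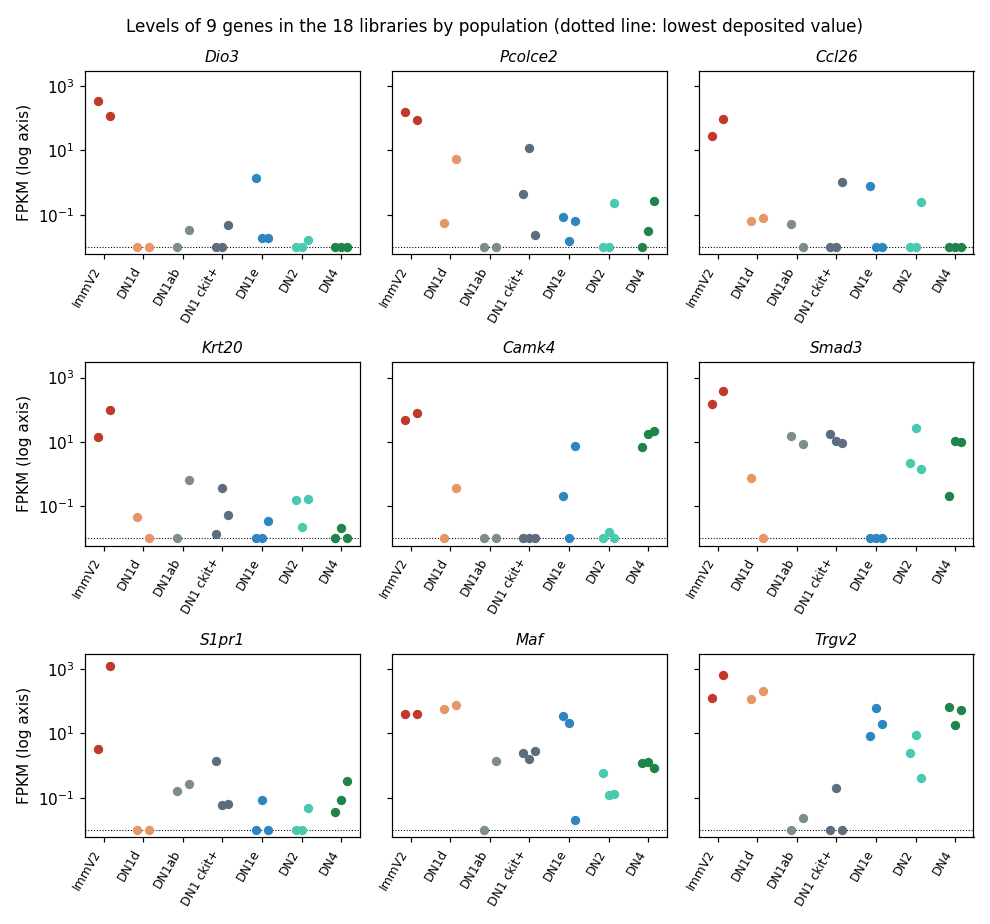
FPKM on a log axis for 9 genes in the 18 libraries, with 1 point for each library, grouped by population; the dotted line marks the lowest deposited value, 0.01 FPKM. Dio3, Pcolce2, Ccl26, Krt20, Camk4, Smad3 and S1pr1 have both ImmV2 points above all others, while Maf and Trgv2 overlap DN1d.

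Across all genes, more were called higher than lower in ImmV2, as was so for each of the other populations. Of 24525 genes tested, 97 (0.396%) were called, 94 higher in ImmV2 (0.383%) and 3 lower (0.0122%), at an adjusted p under 0.05 and a log2 difference of at least 1 (limma, Benjamini-Hochberg). Left out in turn, ImmV2 1 gave 238 higher and ImmV2 2 gave 328, and the deposited log2 values with no pseudocount gave 12 higher and 12 lower. At an unadjusted p under 0.05 there were 1298 higher and 220 lower genes. Of the 94, 47 carry clone, predicted-gene, microRNA or pseudogene-type names and are not described, and 47 carry gene names. The median log2 difference was 4.60 over the called higher genes and -0.26 over all genes tested. In 68 of the 94, both ImmV2 libraries lay above all 16 others. Without any test, 211 genes (0.86%) had both ImmV2 values above all others and 46 (0.188%) had both below.

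The filter on low values bears on these counts. It asked for 1 FPKM in at least 2 libraries, which the ImmV2 libraries alone can supply. Of the 94 called genes, 54 had fewer than 2 other libraries at 1 FPKM, against 789 of all 24525 genes tested, and 19 had none. With the filter applied to the 16 other libraries alone, an alternative added after seeing the data, 24 genes were called higher and 1 lower. A gene that passed only through ImmV2 had to differ, so these counts are descriptions. So are the differences and p-values of the 54 genes. They include Dio3, Ccl26, Prok2, S1pr1, Cnr1, Traj35 and Traj40, each with 1 other library at 1 FPKM.

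The same comparison made for each population in turn places ImmV2 in the middle of the 7. It called 294 genes higher in DN1e, 116 in DN1d, 108 in DN1ab, 44 in DN4, 43 in DN1 ckit+ and 8 in DN2. Fewer were called lower in every population: 36 in DN1e, 3 in DN1d, 9 in DN1ab, 2 in DN4, 2 in DN1 ckit+ and 0 in DN2. The excess of higher calls is thus not particular to ImmV2. These comparisons share libraries, and DN1e, DN1 ckit+, DN2 and DN4 have 3 libraries against 2 for ImmV2.

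**Figure D2:**
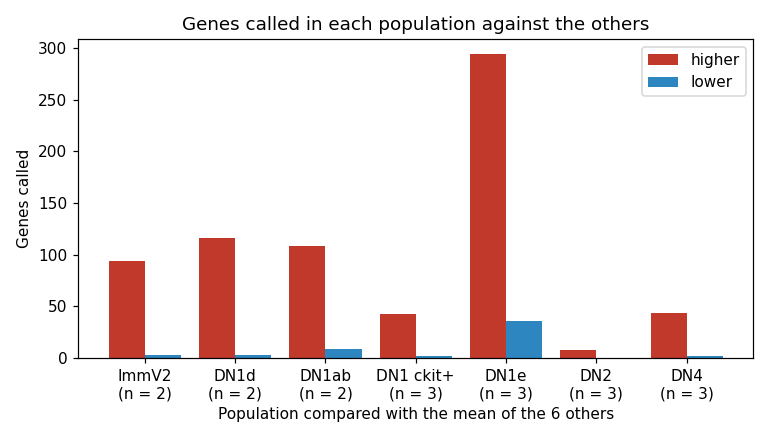
Bars give the number of genes called higher or lower in each population against the mean of the 6 others, with the number of libraries under each name. ImmV2 had 94 higher and 3 lower, between DN1ab with 108 higher and DN4 with 44 higher.

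Single populations differed from ImmV2 to unlike extents. ImmV2 was higher for 71 genes (0.29%) and lower for 74 (0.302%) against DN1e, and higher for 45 (0.183%) and lower for 52 (0.212%) against DN1ab. Against DN1d the counts were 31 (0.126%) and 37 (0.151%), and against DN1 ckit+ they were 59 (0.241%) and 22 (0.0897%). Against DN4 they were 44 (0.179%) and 17 (0.0693%), and against DN2 they were 43 (0.175%) and 3 (0.0122%). No gene was called lower against each of the 6 populations (limma, 1 at an unadjusted p under 0.05), whereas 18 were called higher against each (0.0734%). That count was 76 without ImmV2 1 and 101 without ImmV2 2. Another 18 were called higher against 5 of the 6, and the population that missed was DN1d for 11 of them, DN4 for 3, DN1ab for 2, DN1e for 1 and DN2 for 1.

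Of the 18 genes called higher against all 6 populations, 10 carry gene names: Dio3, Traj35, Ccl26, Krt20, Btnl2, Gdf6, Olfr24, Mill1, Guca2b and Trp53tg5. Of the 18, 17 had fewer than 2 other libraries at 1 FPKM and 12 had none. All 17 thus passed the filter only through the ImmV2 libraries. The 17 include all 10 named genes, and the 12 include Krt20, Btnl2, Gdf6, Olfr24, Mill1, Guca2b and Trp53tg5. Differences and p-values of the 10 named genes are therefore descriptions. With the filter on the other libraries alone, 1 gene was called against all 6. Outside Dio3 and the receptor segment, the named genes reached from 2.29 to 99.4 FPKM in the ImmV2 libraries, and 1.02 FPKM was the highest value in any other library.

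Ccl26, a chemokine of the eotaxin group, was at 28.8 and 91.7 FPKM in ImmV2, while the others ran from 0.01 FPKM, which was also their median, to 1.02 FPKM in DN1 ckit+ 3. The groups did not overlap, and the log2 difference was 5.56 ± 0.58 SE (limma, adjusted p = 0.000188). Gdf6, a bone morphogenetic protein family growth factor, was at 8.58 and 16.9 FPKM against at most 0.290 FPKM elsewhere (3.64 ± 0.38, limma, adjusted p = 0.000188). Guca2b, the peptide uroguanylin, was at 2.38 and 7 FPKM against at most 0.0639 FPKM. All 3 separated both ImmV2 libraries from every other library.

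The other named genes of the 18 have unlike roles. Btnl2, a butyrophilin-like protein of the major histocompatibility region that can restrain T cells, was at 55.1 and 5.13 FPKM against at most 0.0631 FPKM elsewhere (4.19 ± 0.55, limma, adjusted p = 0.00145). Mill1, a relative of class I histocompatibility molecules, was at 3.11 and 11.7 FPKM against at most 0.0711 FPKM. Krt20, an epithelial keratin, was at 14.4 and 99.4 FPKM against a median of 0.0216 FPKM and at most 0.658 FPKM (5.16 ± 0.59, limma, adjusted p = 0.000443). None of these overlapped the other libraries. The 12 markers of thymic epithelium and stroma summed to 101 and 58.1 FPKM in ImmV2 and to 19.6 to 550 FPKM elsewhere. In ImmV2 1 and 2, 8 and 2 of them were at the lowest value. Pecam1 made up 98.9 and 49.7 FPKM of the ImmV2 sums, and was at 8.69 to 55.2 FPKM elsewhere. The keratins of the list, Krt5, Krt8, Krt14 and Krt18, were at 0.185 FPKM or less in each ImmV2 library, and Epcam was at 0.01 and 4.59 FPKM. The part of these markers in the Krt20 result was not tested. The odorant receptor Olfr24 was at 3.29 and 19.1 FPKM against at most 0.917 FPKM, and Trp53tg5 was at 6.21 and 2.29 FPKM against at most 0.120 FPKM.

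**Figure D3:**
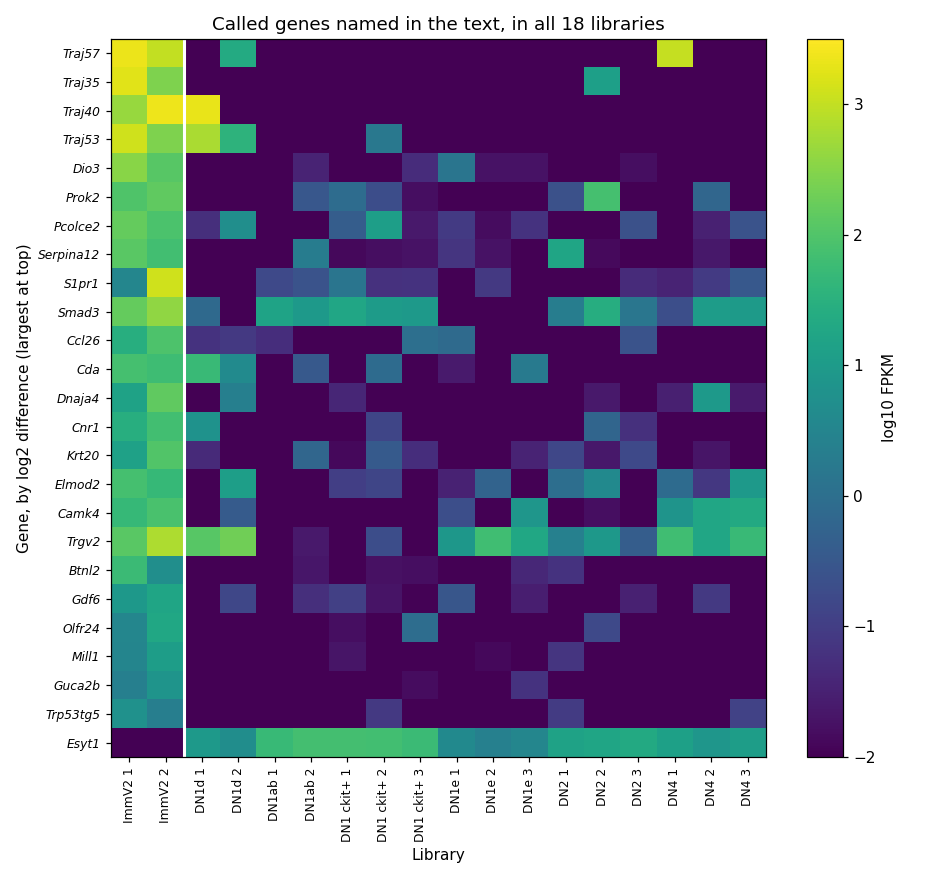
Log10 FPKM of the 25 called genes named in the text (rows, by log2 difference) in the 18 libraries (columns); the white line divides the 2 ImmV2 libraries from the 16 others. The joining segments and Dio3 stand at the top, and Esyt1, at the bottom, has the lowest value in ImmV2 1 and 2 and a higher one in all others.

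Further named genes had both ImmV2 values above all others. Called genes whose values overlapped other libraries include Mei4, with a log2 difference of 12.80, and Kctd12b, with 6.94, which fall outside the naming rule and were picked with their values in view. Pcolce2, a collagen-binding enhancer of procollagen processing, was at 156 and 85.9 FPKM in ImmV2. Elsewhere its median was 0.0426 FPKM, DN1 ckit+ 2 had the highest value at 11.8 FPKM and DN1d 2 had 5.22 FPKM, so the groups did not overlap. The log2 difference was 6.35 ± 0.90 SE (limma, adjusted p = 0.00267), and it passed against every population but DN1d (5.51 ± 1.19, adjusted p = 0.0705). Of 17 tested genes for extracellular matrix and procollagen processing, Pcolce2 was the 1 called, beside 0.383% of all genes called higher, and the list's median log2 difference was 0.22.

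Prok2, a secreted prokineticin, was at 97.5 and 145 FPKM, with 76.8 FPKM in DN2 2 and 0.871 FPKM or less in the other 15 libraries. The log2 difference was 6.39 ± 1.15 SE (limma, adjusted p = 0.0166), and DN1e was the 1 population against which it passed. Without ImmV2 1 or ImmV2 2 its adjusted p was 0.0604 or 0.0745 (limma). Serpina12, a serine protease inhibitor known as vaspin, was at 123 and 66.9 FPKM, with 17.1 FPKM in DN2 1 as the highest other value (6.13 ± 0.91, limma, adjusted p = 0.00376). Cnr1, the cannabinoid receptor CB1, was at 27.4 and 68.1 FPKM, with 6.32 FPKM in DN1d 1 as the highest other value (5.16 ± 0.67, limma, adjusted p = 0.00145). For each of these genes ImmV2 stood above all others, but the margin over the nearest library was far smaller than for Dio3.

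S1pr1, the sphingosine 1-phosphate receptor through which T cells leave the thymus, was very unlike in both ImmV2 libraries. It was at 3.30 FPKM in ImmV2 1 and 1240 FPKM in ImmV2 2, and at 0.01 to 1.40 FPKM elsewhere with a median of 0.0542 FPKM. The groups did not overlap, yet the call (6.02 ± 1.21, limma, adjusted p = 0.0387) passed against none of the 6 populations alone and was lost in 21 of 28 alternative settings. These include leaving out any 1 of the 16 other libraries (limma, adjusted p = 0.0512 to 0.0640). Without ImmV2 1 the log2 difference was 10.10, and without ImmV2 2 it was 1.93. It was the 1 gene called of 16 tested trafficking receptors, beside 0.383% of all genes called higher, and their median log2 difference was -0.45. Klf2, a factor that turns on S1pr1, was at 17.5 and 10.8 FPKM against 0.0269 to 24.3 FPKM elsewhere.

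Smad3, which carries signals of transforming growth factor beta to the nucleus, was at 155 and 378 FPKM, against 0.01 to 27.2 FPKM elsewhere with a median of 5.52 FPKM. The groups did not overlap, and the log2 difference was 5.79 ± 1.02 SE (limma, adjusted p = 0.0156). Without ImmV2 2 it missed the threshold (5.15, limma, adjusted p = 0.110). It passed against DN1d and DN1e alone, the populations in which it was at 0.753 FPKM or less. It missed the threshold against DN1ab (4.24 ± 1.36, adjusted p = 0.319) and DN1 ckit+ (4.23 ± 1.24, adjusted p = 0.264), each at 8.89 FPKM or more in every library.

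Camk4, a calcium and calmodulin dependent kinase active in thymocytes, was at 49.2 and 81.8 FPKM. DN4 came next at 7.07, 18.1 and 21.9 FPKM, DN1e 3 had 7.61 FPKM and every other library had 0.374 FPKM or less. The difference was 5.12 ± 0.84 (limma, adjusted p = 0.00883), and it passed against all populations but DN4 (2.08 ± 1.02, adjusted p = 0.732). Without ImmV2 2 its adjusted p was 0.0537 (limma). Cda, cytidine deaminase of pyrimidine salvage, showed the same form with DN1d in the place of DN4: it was at 74.1 and 62.8 FPKM in ImmV2, 53.4 and 4.32 FPKM in DN1d and 1.82 FPKM or less elsewhere (5.26 ± 0.83, limma, adjusted p = 0.00599). The difference from DN1d was 2.02 ± 1.10 (limma, adjusted p = 0.79). Dnaja4, a heat shock protein 40 cochaperone, was at 14.6 and 145 FPKM with 9.28 FPKM in DN4 2 as the highest other value, and Elmod2, a regulator of Arf family GTPases, was at 75.0 and 48.7 FPKM with 12.1 FPKM in DN1d 2. Dnaja4 was not called without ImmV2 2 (limma, adjusted p = 0.0893), nor Elmod2 without ImmV2 1 or 2 (limma, adjusted p = 0.149 and 0.0639).

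Esyt1, which tethers the endoplasmic reticulum to the plasma membrane, was the 1 named gene lower in ImmV2 with no overlap. It had the lowest deposited value in ImmV2 1 and ImmV2 2 and stood at 2.45 to 70.9 FPKM in all 16 others, with a median of 14 FPKM (limma, adjusted p = 0.0166). Its highest values, 51.0 to 70.9 FPKM, were those of DN1ab and DN1 ckit+. The call was lost without ImmV2 1 (limma, adjusted p = 0.0833) and without ImmV2 2 (limma, adjusted p = 0.0624). No fold is given, since both ImmV2 values were the lowest deposited. The other 2 genes called lower, Sephs1 and an unnamed row, lie outside the naming rule because their values overlapped, and both likewise had the lowest value in ImmV2.

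The agreement of both ImmV2 libraries was closer for the called genes than for genes at large. Of the 94, 84 had ImmV2 values within 10-fold of each other, against 13673 of the 24525 genes tested, and 48 of the 94 were larger in ImmV2 1. A call needs both libraries to be high, so this closeness is in part set by the test. Over all genes tested, 5565 had at least 1 FPKM in both ImmV2 libraries and 9073 in 1 of them.

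**Figure D4:**
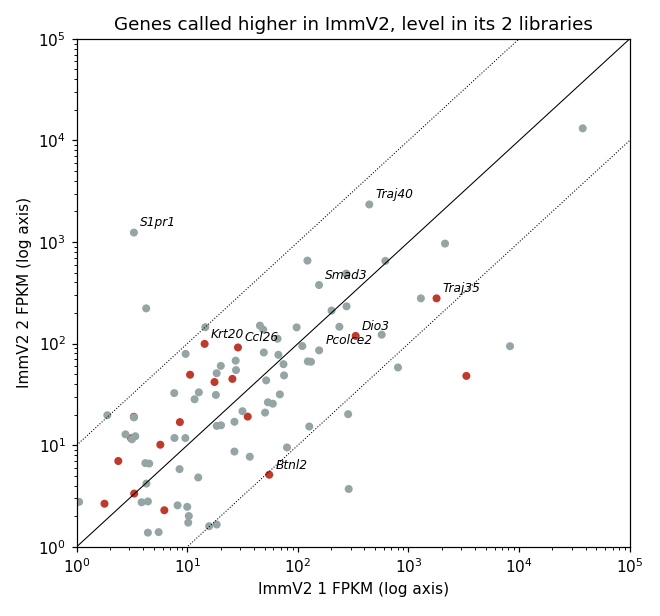
Each point is 1 of the 94 genes called higher in ImmV2, with its FPKM in ImmV2 1 and in ImmV2 2 on log axes; red points are the 18 genes called against all 6 populations, the solid line marks equal values and the dotted lines mark 10-fold. S1pr1 lies far above the lines at 3.30 and 1240 FPKM, and 84 of the 94 points lie within 10-fold.

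Alpha chain joining segments are the pieces to which a variable segment is joined in alpha rearrangement. Of 39 tested, 4 were called higher (10.3%, beside 0.383% of all genes tested), and the median log2 difference over the 39 was 3.68. The filter chose the 39 from 59 in part by their ImmV2 values, which can raise both figures, so they are descriptions. Traj12, at 1081 FPKM in ImmV2 2 and 587 FPKM in DN1d 2 alone of the others, was tested. Traj11, at 378 FPKM in DN4 1 and at the lowest value in all other libraries, was not. The count was 2 with the filter on the 16 other libraries alone, which Traj35 and Traj40 do not pass, and 8 without ImmV2 1. Traj35 was at 1794 and 279 FPKM in ImmV2, at 12.6 FPKM in DN2 2 and listed at the lowest value in the other 15 libraries (9.25 ± 0.93, limma, adjusted p = 0.000181). Traj53 had 1294 and 279 FPKM in ImmV2, 618 and 36.0 FPKM in DN1d, 1.61 FPKM in DN1 ckit+ 2 and the lowest value elsewhere (7.94 ± 0.93, limma, adjusted p = 0.000513). Traj35 therefore stood above all others, while Traj53 overlapped DN1d.

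Traj57 was at 2139 and 965 FPKM in ImmV2, at 1025 FPKM in DN4 1, at 23.3 FPKM in DN1d 2 and at the lowest value elsewhere (9.54 ± 1.76, limma, adjusted p = 0.0220). Traj40 was at 442 and 2345 FPKM in ImmV2, at 2042 FPKM in DN1d 1 and at the lowest value in the other 15 (9.06 ± 1.62, limma, adjusted p = 0.0164). Traj57 was not called without ImmV2 1 or 2 (limma, adjusted p = 0.155 and 0.0657), nor Traj40 without ImmV2 2 (limma, adjusted p = 0.129). Each of these segments was thus shared with a single further population at a like level. Traj59 and Traj27 also had both ImmV2 values above all others, at 3939 and 5940 FPKM and at 788 and 914 FPKM, but missed the threshold (limma, adjusted p = 0.0780 and 0.0693). Both fall outside the naming rule and were picked with their values in view.

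Counted by library, DN1d 2 held the most joining segments, followed by both ImmV2 libraries and DN4 2. Of 59 in the table, 20 and 22 had at least 1 FPKM in ImmV2 1 and 2, 9 and 24 in DN1d, and 10, 17 and 8 in DN4. The other 11 libraries had 6 or fewer. At 100 FPKM the counts were 18 and 22 in ImmV2, 9 and 22 in DN1d, 7, 14 and 8 in DN4, and at most 2 elsewhere. Both ImmV2 libraries held 10 of these segments in common, while 10 were in ImmV2 1 only and 12 in ImmV2 2 only. Of the 10 in common, 7 were also in a DN1d library, beside 28 of all 59 segments, and 0 were in ImmV2 alone. These overlaps carry no test.

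Part of the segments in common lay toward the 5′ end of the joining cluster, the end used first in alpha rearrangement. Among the first 9 in the reference order, Traj61 to Traj53, 7 and 8 had at least 1 FPKM in ImmV2, 4 and 9 in DN1d, 3, 3 and 1 in DN4, and 3 or fewer in every other library. Of the 10 segments in both ImmV2 libraries, 6 were among those 9. The rest, Traj40, Traj35, Traj32 and Traj27, were at places 21, 26, 29 and 34 of the 59. The cut at Traj53 was chosen after the values were seen, so these counts carry no test.

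**Figure D5:**
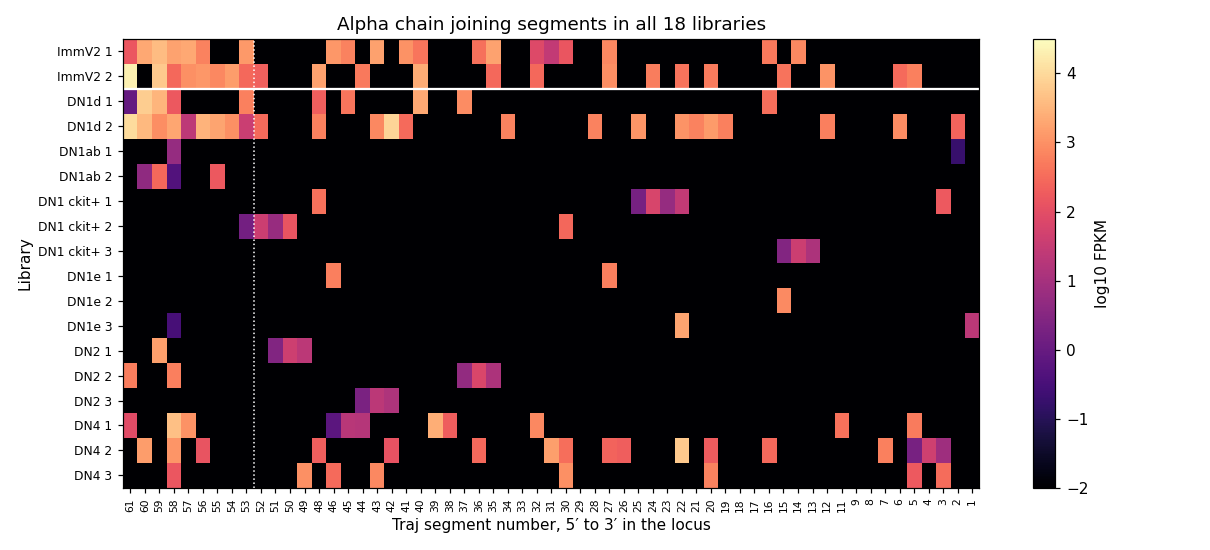
Log10 FPKM of the 59 alpha joining segments, ordered from the 5′ end of the locus (left) to the 3′ end, in the 18 libraries (rows); the white line divides ImmV2 from the others and the dotted line follows Traj53. The ImmV2 and DN1d rows are filled at the left, where 7 and 8 and 4 and 9 of the first 9 segments had at least 1 FPKM.

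Gamma and delta segments varied between both ImmV2 libraries. Trgv2 was the 1 called of 11 gamma segments tested and 0 of 9 delta segments were called (limma, 3 higher at an unadjusted p under 0.05). Over all 152 receptor segments tested, 5 were called higher (3.29%), a share on which the filter bears as it does for the alpha joining segments. Tcrg-V6 was at 6.02 and 101 FPKM against 0.01 to 12.7 FPKM elsewhere (3.55 ± 1.04, limma, adjusted p = 0.293). Tcrg-V4 was at the lowest value and 24.7 FPKM in ImmV2, below 10 of the other libraries. Its median elsewhere was 47.6 FPKM and its highest value 26617 FPKM, in DN1d 2. Tcrg-V7 was at 20441 FPKM in ImmV2 1 and 11.1 FPKM in ImmV2 2, and the joining segment Trgj1 was listed at the lowest value in ImmV2 1 and at 10560 FPKM in ImmV2 2. The delta variable segment Trdv5 was at 317 and 4.63 FPKM, and Trdj1 was at 13163 FPKM in ImmV2 1 and at the lowest value in ImmV2 2. Segments of 1 family resemble each other, and how the authors' counting divided shared reads is not given in the sources used here.

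Of the receptor complex and its signalling genes, 0 of 19 tested passed (limma, 3 higher at an unadjusted p under 0.05), with a median log2 difference of 0.68. The kinases Zap70 and Syk were at 0.01 FPKM in ImmV2 1 and 2, and Cd247, another chain of the complex, was at 0.01 FPKM in ImmV2 1 and 155 FPKM in ImmV2 2. Cd3e, a signalling chain of the complex, was at 16.6 and 211 FPKM in ImmV2, at 51.6 to 170 FPKM in DN1d and DN4, at 25.0 to 72.8 FPKM in DN1e and at 1.56 FPKM or less in DN1ab, DN1 ckit+ and DN2. Themis, a T-lineage signalling protein, was at 30.3 and 43.3 FPKM in ImmV2, 33.6 to 42.7 FPKM in DN4, 16.8 FPKM in DN2 1 and 0.804 FPKM or less elsewhere (3.96 ± 0.92, limma, adjusted p = 0.0869). For Cd3e and Themis the ImmV2 and DN4 values overlapped.

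T-lineage factors gave 0 calls of 13 tested (limma, 2 higher at an unadjusted p under 0.05), with a median log2 difference of -0.10. Bcl11b, needed for T-lineage commitment, was at 32.8 and 36.6 FPKM in ImmV2, 22.2 and 61.9 FPKM in DN1d, 13.3 to 24.6 FPKM in DN2 and DN4, 0.905 to 6.99 FPKM in DN1e and 0.217 FPKM or less in DN1ab and DN1 ckit+ (2.49 ± 0.79, limma, adjusted p = 0.379). Gata3 was at 73.0 and 68.5 FPKM within a range of 0.01 to 114 FPKM. Ets1 was at 53 and 99.7 FPKM within 0.01 to 111 FPKM. In these 3 the ImmV2 libraries lay near each other and within the range of the rest, whereas Myb was at 91.6 and 0.01 FPKM, Runx1 at 20.5 and 0.882 FPKM and Runx3 at 0.01 and 11.9 FPKM.

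Of 13 HMG-box genes tested 0 were called (limma, 1 higher and 1 lower at an unadjusted p under 0.05), with a median log2 difference of -0.06. Tox2 was at 16 and 14.3 FPKM against at most 5.99 FPKM in any other library, the 1 gene of the list with no overlap, and missed the threshold (3.39 ± 0.77, limma, adjusted p = 0.0784). Tox was at 51.3 and 62.9 FPKM against 1.39 to 51.9 FPKM. Sox13 was at 7.15 and 11.3 FPKM, below both DN1d values of 14 and 76.3 FPKM, and Sox4 was at 0.301 and 0.470 FPKM. Tcf7 was at 1.82 and 13.7 FPKM and Lef1 at the lowest value and 0.364 FPKM, so the HMG-box genes did not move together.

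The IL-17 gamma delta programme, which holds Maf, Sox13 and Sox4, had 0 calls among 16 tested (limma, 4 higher and 1 lower at an unadjusted p under 0.05), with a median log2 difference of 0.17. Blk, a Src family kinase used by these cells, was at 31.8 FPKM in ImmV2 1 and 0.0203 FPKM in ImmV2 2. Il23r, the IL-23 receptor, was at 34.2 and 4.78 FPKM against 0.01 to 14.4 FPKM elsewhere (3.06, limma, adjusted p = 0.393). Il17a, the cytokine itself, was at the lowest value and 0.0623 FPKM. Zbtb16 was at the lowest value and 0.799 FPKM and was not tested, because too few libraries reached 1 FPKM. Il7r was at 7.37 FPKM and at the lowest value.

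Among thyroid hormone genes, Dio3 was the 1 called of 15 tested, beside 0.383% of all genes, and 2 were higher at an unadjusted p under 0.05 (limma). The list's median log2 difference was -0.47. Dio1, an activating deiodinase, was at the lowest value in ImmV2 1 and 18.2 FPKM in ImmV2 2. Dio2, the other activating deiodinase, was at the lowest value and 0.0942 FPKM. The receptor gene Thra was at 0.596 and 0.293 FPKM, against 0.01 to 12.7 FPKM elsewhere, and Thrb was at 0.919 and 37.6 FPKM. The transporter Slc16a10 was at 16.8 and 11.4 FPKM against 0.01 to 180 FPKM.

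Genes of early progenitors (15 tested) and of recombination and the double-positive transition (12 tested) gave 0 calls, with 1 and 2 at an unadjusted p under 0.05 (limma). Kit was at 5.99 and 17.3 FPKM in ImmV2 and at 49.9 to 141 FPKM in DN1 ckit+. Rag1, part of the recombinase, was at the lowest value and 0.662 FPKM in ImmV2 and at 53.9 to 59.6 FPKM in DN4 (-2.35 ± 1.38 against the mean of the others, limma, adjusted p = 0.866). Cd44 and Id3 had the lowest value in ImmV2 1 and ImmV2 2. Il2ra was at 0.756 and 82.7 FPKM, Cd24a at the lowest value and 468 FPKM, and Id2 at 1.79 and 3.70 FPKM. Il2ra and Cd24a were thus high in ImmV2 2 and low in ImmV2 1.

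Other lists gave 0 calls, a count read beside the 97 called (0.396%) and the 1518 at an unadjusted p under 0.05 among all 24525 genes, and not as a property of the lists. For Notch receptors and targets (10 tested), type 1 and cytotoxic genes (9), innate lymphoid genes (11) and the cell cycle (24), 0 members passed even at an unadjusted p under 0.05 (limma). Of 17 genes induced by receptor signals 1 was higher at that level and 0 were called (limma). Its immediate early member Egr1 was at 65.6 and 12.7 FPKM, against 0.01 to 16.7 FPKM elsewhere. Of 13 small bZIP factors, Maf among them, 3 were higher at that level and 0 were called (limma). The repressor Bach2 was at 57.3 and 3.93 FPKM, against 0.01 to 13.4 FPKM elsewhere (3.55, limma, adjusted p = 0.181).

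Among markers of other cell types, 0 members were called in 5 lists, beside 0.396% of all genes (limma; at an unadjusted p under 0.05, 3 myeloid and 1 dendritic gene were lower, and 1 erythroid or platelet and 1 stromal gene higher). Myeloid markers summed to 3.22 and 117 FPKM in ImmV2 and to 8.47 to 2526 FPKM elsewhere, and B cell markers to 37.7 and 80.8 FPKM against 4.35 to 1256 FPKM, with Ighm at 25.2 and 78.2 FPKM, Cd79b at 9.37 FPKM in ImmV2 1 and Cd79a at 0.01 FPKM in each ImmV2 library. Dendritic markers summed to 15.3 and 386 FPKM against 11.1 to 354 FPKM. The dendritic sum of ImmV2 2 was thus above, and the myeloid sum of ImmV2 1 below, that of all 16 others. The chemokine receptor gene Ccr9 made up 354 FPKM of the dendritic sum of ImmV2 2, and was at 0.01 FPKM in ImmV2 1 and 230 FPKM in DN1d 2. Of the 14 dendritic and plasmacytoid markers, 8 were at 1 FPKM or less in both ImmV2 libraries. Erythroid and platelet markers summed to 5086 and 46.6 FPKM against 0.733 to 13279 FPKM, and Pf4, a platelet gene, made up 5029 FPKM of the ImmV2 1 sum. Their part in the calls was not tested.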

How the data were processed

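RNA-seq was analysed in 18 libraries of 7 sorted mouse thymocyte populations, grouped by their labels. The authors deposited log2 FPKM values, 1 row for each of 34082 gene symbols. The submitters' processing notes name Bowtie and the build mm8. Versions, annotation, strand, quantifier, scaling and the step from transcripts to 1 row per symbol are not stated there or in the labels. High values recur across genes and libraries (Trgj2 in ImmV2 2 and DN1e 2, both 8277 FPKM), as values put on a shared scale by rank would. Since the values are not counts, the depth behind a value is unknown and counting error has no interval.

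Deposited values were converted to FPKM, and log2 of FPKM plus a pseudocount of 1 was fitted, a scale that understates changes at low levels. Genes had to reach 1 FPKM in 2 or more libraries, which left 24525. The fit used limma 3.58.1 (R 4.3.3), with eBayes and a trend. One fit held 7 population means, so the 2 ImmV2 libraries share their spread estimate with the others. The contrast was ImmV2 minus the unweighted mean of the 6 others, and 6 further contrasts took each population. All tests were two-sided, p-values were adjusted by Benjamini-Hochberg over the 24525 genes, and calls required an adjusted p under 0.05 with a log2 difference of 1 or more in either direction. The script was tested on simulated data.

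Named genes are 20 key genes, the 14 largest called higher and up to 10 called lower among those without overlap, those called against all 6 populations, and up to 4 called members of each of 21 lists and of the receptor segments; clone, predicted-gene, microRNA and small RNA names were passed over. Uncalled list members, Sephs1 and segments outside this rule were picked with their values in view. Members and lists were chosen with earlier results of these data known. Replicate numbers gave no pairing: deviations of same-numbered libraries correlated at -0.0164 to 0.0174. Sequences are RefSeq or GENCODE on GRCm38, which is not the files' build, so their coordinates belong to the reference alone. Alternatives were other pseudocounts, filters, scalings and models, and leaving out libraries. Sequences and figures used Python with pandas and matplotlib.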

Additional observations from a re-analysis of the deposited data

How the results depend on the processing

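Counts of called genes depended on the setting. Over 25 named called genes and their alternatives, 629 of 710 results remained called, 81 did not and 0 reversed. These genes were picked as called. Most had no overlap with the other libraries, and leaving out a library cannot reverse such a gene. Each gene was counted only under settings that tested it, so the tally is a description. Traj53 was called under all 30 alternatives and Dio3 and Traj35 under the 29 that tested them, all but the filter on the 16 other libraries. Against 94 higher and 3 lower, and 18 higher against all 6 populations, a pseudocount of 0.1 FPKM gave 58, 10 and 5, and the deposited log2 values without pseudocount gave 12, 12 and 2, with 1 lower against all 6. A pseudocount of 5 FPKM gave 1 lower, and no filter gave 7 lower. A filter at 5 FPKM gave 56 higher and 9 against all 6. With no trend there were 10 lower and 11 against all 6, and with the 16 other libraries as 1 group 0 lower (limma, 1358 genes at an unadjusted p under 0.05). The added filter on the 16 other libraries alone gave 24, 1 and 1. Of the 94 genes, 40 passed this filter and 24 stayed called. The cause of these shifts was not tested.

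With the replicate number as a block, 58 genes were higher, 0 lower (limma, 1481 genes at an unadjusted p under 0.05) and 10 against all 6. The numbers do not pair the libraries, since 6 of 18 correlated best with their own number.

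Leaving out 1 library at a time gave 67 to 328 higher, 0 to 6 lower, 12 to 101 higher and 0 to 1 lower against all 6. Without ImmV2 1 there were 238 higher, 37 of them among the 94, and without ImmV2 2 there were 328, with 43 of the 94. The lone library is then assumed to vary like the other groups. Genes without overlap ranged from 223 to 1715 above and 50 to 420 below, highest without ImmV2 2, as fewer values must then be passed. Leaving out both ImmV2 1 and DN2 1, added after seeing the data, gave 189, 0 and 62. The share of lowest values in ImmV2 minus that in the others ranged from -2.09 percentage points without ImmV2 1 to 11.1 without ImmV2 2. The depth behind a value is unknown, so low values cannot be told from missed ones.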
